A study of Mus musculus with 8 samples.

Results

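The 45 genes described here belong to the amino acid arm of the integrated stress response in mouse cells: stress regulators and feedback genes (15), enzymes that make amino acids and folate-bound carbon (9), amino acid transporters (9) and aminoacyl-tRNA synthetases (12). They were taken by symbol from a list that was chosen with earlier results of these data known. All 45 were found among the 24339 genes of the table. RNA was sequenced from peritoneal macrophages, the resident phagocytes of the abdominal cavity, from C57BL/6 animals, either wild type or α7nAChR-/- (here called knockout), which have no α7 subunit of the nicotinic receptor for acetylcholine. Cells of each genotype were cultured overnight and given 10 µM nicotine or its vehicle. After 15 min, 100 ng/ml LPS (lipopolysaccharide, from the bacterial outer membrane) or its vehicle was added, and RNA was taken 4 h later. This gave 8 groups: wild type or knockout with vehicle only, nicotine only, LPS only or nicotine followed by LPS. Each group was 1 library with no replicate. The labels do not say how many animals gave the cells, so genotype and cell preparation cannot be told apart, and every p-value given here reflects only how far single libraries departed from the model, which may be technical.

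As background, cells that run short of amino acids or meet other stress phosphorylate the translation factor eIF2α through kinases such as GCN2 (encoded by Eif2ak4) and PERK (Eif2ak3). General translation then slows while the transcription factor ATF4 is translated more, and ATF4 pairs with C/EBP proteins on composite elements to raise genes for amino acid synthesis, uptake and tRNA charging. CHOP (Ddit3) and the pseudokinase Trib3 belong to the later part of the program, and Ppp1r15a encodes the phosphatase subunit that removes the phosphate from eIF2α. In macrophages the program meets the response to LPS, in which C/EBPβ and the cystine carrier Slc7a11 also take part.

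Levels are in FPKM, which divides a gene's fragments by its length and by the size of the library. Chrna7, the targeted gene, was listed at 0 FPKM in all 8 libraries, wild type included, and so did not check the genotype labels. FPKM summed to between 413052 and 854016 per library, highest in both LPS-only libraries, while the median over the 10447 tested genes lay between 9.66 and 10.2 FPKM. The macrophage markers Adgre1, Csf1r, Cd68 and Itgam were present in all libraries (lowest value 265 FPKM), and none of the 9 macrophage markers in the table was under 1 FPKM throughout. Of the macrophage markers, Gata6, Mertk and Fcgr1, singled out after their values were seen, were lower with nicotine. Gata6 was at 3.49 to 15.7 FPKM without and 0.814 to 2.45 with it, Mertk at 27.7 to 149 and 9.10 to 15.8, and Fcgr1 at 12.9 to 219 and 1.39 to 7.85. Cd68 went the other way, higher with nicotine in each matched pair. It was at 732 and 508 FPKM (wild type, knockout) with vehicle, 642 and 534 with LPS, 1203 and 824 with nicotine and 1212 and 566 with both. The macrophage markers summed to between 28020 and 34860 FPKM without and between 20440 and 29550 with nicotine. Of the neutrophil markers 5 of 7, of the fibroblast and mesothelial markers 4 of 8, of the T and NK cell markers 3 of 8 and of the mast cell markers 1 of 8 were under 1 FPKM in all libraries. Summed mast cell markers ranged from 159 to 454 FPKM without and 318 to 807 FPKM with nicotine. Hdc made up 171 and 184 FPKM of the LPS-only sums (wild type, knockout), against 2.64 and 1.66 with vehicle. Cpa3, Fcer1a, Mcpt4, Cma1 and Tpsb2 were higher with nicotine in each matched pair, while Kit, Ms4a2 and Hdc were not. Summed B cell markers ranged from 222 to 290 FPKM without and from 190 to 403 FPKM with nicotine. Summed neutrophil markers ranged from 34.2 to 174.5 and from 22.9 to 89.05 FPKM, and T and NK cell markers from 8.22 to 13.6 and from 9.43 to 16.6. Fibroblast and mesothelial markers summed to 0.927 to 2.73 FPKM without and 1.45 to 19 with nicotine. The 19 was in the wild type library with both agents, where Dcn was at 10.7 FPKM. The part of these cells in the results below was not tested, and in bulk RNA fewer cells of a type and less RNA per cell cannot be told apart.

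The C/EBP-ATF composite element was looked for in RefSeq promoter windows (GRCm38.p6, 250 bases before to 50 after each annotated start) as the exact letters TGATGNAA on either strand. At least 1 window was found for 36 of the 45 genes, and 12 of these 36 genes (33.33%) held a match, against 4.51% of the 27025 genes with windows. They were Trib3, Chac1, Nupr1, Asns, Pycr1, Slc7a11, Slc1a4, Aars, Gars, Yars, Tars and Iars, so 5 of the 12 were synthetase genes. The 45 genes were listed for their ties to a program in which ATF4 acts on such elements, so the higher share is no independent support. A match is a description of letters, not a site. Below, stretches of 120 bases ahead of the start are shown for Asns, Chac1 and Aars, which rose with nicotine, and for Slc7a11 and Nupr1, which held a match but did not pass the average nicotine test. All run 5′ to 3′ on the gene's strand with the matching letters in capitals.
Asns, chr6:7693210-7693329, minus strand: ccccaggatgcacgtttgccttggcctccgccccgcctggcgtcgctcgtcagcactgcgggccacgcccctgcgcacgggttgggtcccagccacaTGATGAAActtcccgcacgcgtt
Slc7a11, chr3:50443614-50443733, minus strand: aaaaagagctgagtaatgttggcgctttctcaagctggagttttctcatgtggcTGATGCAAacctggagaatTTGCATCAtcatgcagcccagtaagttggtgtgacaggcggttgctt
Chac1, chr2:119351012-119351131, plus strand: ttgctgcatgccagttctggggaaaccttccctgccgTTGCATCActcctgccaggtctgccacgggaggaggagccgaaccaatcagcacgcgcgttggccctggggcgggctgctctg
Aars, chr8:111033692-111033811, plus strand: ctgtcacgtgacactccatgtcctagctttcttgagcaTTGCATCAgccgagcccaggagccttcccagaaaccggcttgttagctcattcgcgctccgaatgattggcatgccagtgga
Nupr1, chr7:126625501-126625620, minus strand: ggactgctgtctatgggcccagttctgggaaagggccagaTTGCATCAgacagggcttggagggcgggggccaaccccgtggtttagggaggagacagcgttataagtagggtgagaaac
Slc7a11 held 2 matches in opposite orientation, beginning 66 and 47 bases ahead of its start, and the Asns match began 23 bases ahead. Aars also held 2, beginning 112 bases ahead of the start and at base 10 counted from it, the latter outside the stretch shown. The Chac1 and Nupr1 matches began 193 and 110 bases ahead. The stretches of Chac1, Aars and Nupr1 stop short of the start.

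Nicotine raised 35 of the 43 genes that could be tested and lowered none, in all role groups and across both genotypes and both LPS states. Rises in this test were called for 24.1% of all 10447 genes and falls for 22.2% (46.3% together). Since the 45 were listed with earlier results of these data known, the counts only describe them. The median change of the 43 genes was 1.42 on the log2 scale, against -0.04 for all genes tested. In 28 of them, Cth included, all 4 nicotine libraries lay above all 4 libraries without nicotine, which held for 17.7% of all genes. Cth and Slc1a4 could be tested only because of their nicotine libraries, as set out below. The 45 genes together took 0.202% to 0.403% of summed FPKM in the libraries without nicotine and 0.915% to 1.06% in those with it. Differences were tested with limma on log2(FPKM + 1), a scale that understates changes of low genes, in an additive model of genotype, nicotine and LPS with 4 libraries in each arm, and p-values were adjusted over all genes. Stc2, a secreted glycoprotein gene (0 to 0.294 FPKM), and Pycr1, the proline synthesis enzyme gene (0.0354 to 0.466 FPKM), fell under the minimum mean of 1 FPKM and were not tested.

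**Figure D1:**
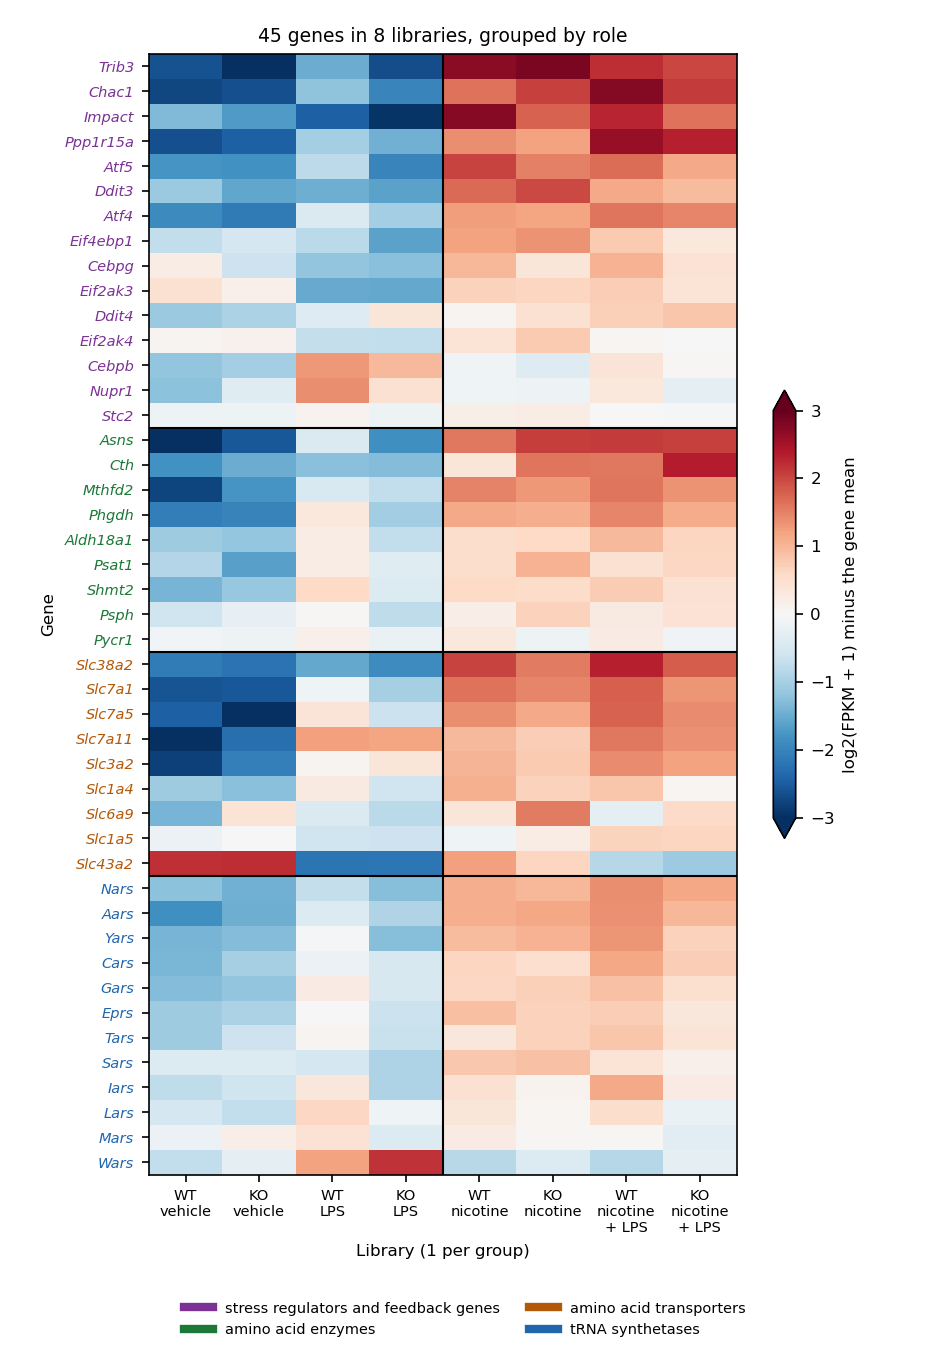
Level of each of the 45 genes (rows, grouped by role) in each of the 8 libraries (columns, WT wild type, KO knockout, 4 without nicotine on the left and 4 with it on the right), as log2(FPKM + 1) minus the gene's mean over libraries; colours are capped at 3 either way. Most rows are blue on the left and red on the right, while Cebpb, Nupr1 and Wars are highest with LPS only and Slc43a2 is highest with vehicle.

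Of the 14 tested stress regulators and feedback genes, 12 rose with nicotine. Atf4 (chromosome 15, 80255184 to 80257541, plus strand, GRCm38), the transcription factor at the centre of the program, stood at 103 FPKM in wild type and 88.6 in knockout cells with vehicle, and at 287 and 192 with LPS. With nicotine it reached 938 and 882 FPKM, and with nicotine and LPS 1179 and 1072. The lowest nicotine library was thus well above the highest library without it, and the average rise was 6.70-fold (log2 change 2.75 ± 0.23, SE, n = 4 libraries per arm, limma adjusted p = 0.000479).

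Ddit3, encoding the stress transcription factor CHOP, was at 18.9 and 13.6 FPKM (wild type, then knockout, here and in what follows) with vehicle, 14.6 and 13.03 with LPS, 139 and 167 with nicotine and 92.8 and 81.3 with both. It rose 7.32-fold on average (2.87 ± 0.19, limma adjusted p = 0.00041), and its levels did not overlap between nicotine and no nicotine. Trib3, the pseudokinase that binds ATF4 and CHOP, went from 1.00 and 0.539 FPKM with vehicle and 3.31 and 0.937 with LPS to 78.1 and 84.6 with nicotine and 55.9 and 47.5 with both. Its change of 4.87 ± 0.34 (limma adjusted p = 0.00041) was the largest of the 43. Chac1, which degrades glutathione, was near the bottom of the range without nicotine (0.227 and 0.292 FPKM with vehicle, 2.52 and 1.06 with LPS). It reached 24.0 and 32.5 FPKM with nicotine and 53.7 and 33.4 with both (4.27 ± 0.24, limma adjusted p = 0.00041).

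Impact, an inhibitor of GCN2 activation, was highest with nicotine alone, at 240 and 124 FPKM, and stood at 178 and 112 with nicotine and LPS. Without nicotine it was at 13.7 and 10.2 FPKM with vehicle and 5.68 and 3.77 with LPS, an average nicotine rise of 4.21 ± 0.22 (limma adjusted p = 0.00041). Ppp1r15a, whose product restores translation by dephosphorylating eIF2α, rose by 3.77 ± 0.15 (limma adjusted p = 0.000251), and Atf5, a transcription factor related to ATF4, by 3.18 ± 0.24. The translation repressor gene Eif4ebp1 rose by 1.82, Cebpg, whose product dimerizes with ATF4, by 1.42 and the mTORC1 inhibitor gene Ddit4 by 1.05.

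Both eIF2α kinase genes among the 45 passed. Eif2ak4, encoding GCN2, was at 4.09 and 4.27 FPKM with vehicle, 1.94 and 1.85 with LPS, 5.41 and 7.21 with nicotine and 3.95 and 3.74 with both (0.62 ± 0.14, limma adjusted p = 0.0127). It was highest with nicotine alone and lowest with LPS alone, and its nicotine and no-nicotine libraries overlapped. Eif2ak3, encoding PERK, changed by 1.23 ± 0.36 (limma adjusted p = 0.0282). In single pairs its nicotine change was 0.24 and 0.49 without LPS and 2.26 and 1.94 with it, and the call ended without any 1 of the 4 LPS-treated libraries (adjusted p 0.0705 to 0.0882). Nupr1, a stress-induced chromatin protein gene (-0.13 ± 0.42, limma adjusted p = 0.811), and Cebpb, encoding C/EBPβ (-0.03 ± 0.37, limma adjusted p = 0.95), did not pass, and their values by library are given with LPS below.

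All 8 tested amino acid enzyme genes rose with nicotine. Asns (chromosome 6, 7675169 to 7693254, minus strand), encoding asparagine synthetase, was at 2.47 and 3.74 FPKM with vehicle and 19.5 and 6.70 with LPS, and at 81.1 and 115 with nicotine and 117 and 112 with both. Every nicotine library was above every other one, and the change was 3.89 ± 0.41 (limma adjusted p = 0.00085). Cth, which makes cysteine from cystathionine, was listed at 0 and 0.250 FPKM with vehicle and 0.479 and 0.422 with LPS, and at 3.52 and 9.76 with nicotine and 9.50 and 16.9 with both (2.94 ± 0.25, limma adjusted p = 0.000479). Cth averaged 0.288 FPKM without nicotine and the transporter gene Slc1a4 0.747, so both reached the minimum mean of 1 FPKM only through the nicotine libraries, and their calls among the 35 do not stand as support. Mthfd2, a mitochondrial folate enzyme gene, went from 8.69 and 18.3 FPKM with vehicle and 46.9 and 38.3 with LPS to 182 and 161 with nicotine and 199 and 167 with both (2.86 ± 0.38, limma adjusted p = 0.00175).

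Serine synthesis runs through Phgdh, Psat1 and Psph in that order, and their changes were 2.41, 1.32 and 0.80. Psat1 stood at 10.1 and 5.67 FPKM with vehicle, 22.9 and 15.1 with LPS, 28.5 and 41.3 with nicotine and 27.0 and 30.7 with both (1.32 ± 0.36, limma adjusted p = 0.0226). Psph stood at 2.15 and 3.05, 3.88 and 1.81, 4.52 and 6.71, and 4.76 and 5.49 FPKM in the same order (0.80 ± 0.23, limma adjusted p = 0.0269). For both genes the nicotine libraries were all above the others, by a small margin. The mitochondrial serine hydroxymethyltransferase gene Shmt2 was at 5.30 and 6.502 FPKM with vehicle, 24.0 and 11.4 with LPS, 24.0 and 23.5 with nicotine and 26.9 and 21.9 with both (1.18 ± 0.33, limma adjusted p = 0.0253). It overlapped, since wild type cells with LPS alone were as high as cells with nicotine. Aldh18a1, at the entry to proline synthesis, rose by 1.37 ± 0.22 (limma adjusted p = 0.00326). The call of Psat1 ended without any 1 of 4 libraries (both vehicle, wild type nicotine and knockout LPS, adjusted p 0.0508 to 0.0585), that of Psph without any 1 of 6 (all but wild type nicotine and wild type LPS, 0.0542 to 0.0802) and that of Shmt2 without any 1 of 5 (both vehicle, both nicotine-only and knockout LPS, 0.0542 to 0.0736). Exons of Psph share 26.1% of their bases with the opposite-strand gene Cct6a, and the kit does not mark strand, so reads there cannot be assigned.

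Of 9 transporter genes 6 rose with nicotine and 3 did not pass. Slc38a2, encoding the neutral amino acid carrier SNAT2, was at 20.1 and 18.4 FPKM with vehicle, 30.3 and 23.7 with LPS, 368 and 267 with nicotine and 454 and 321 with both. No overlap was seen, and the change of 3.87 ± 0.13 (limma adjusted p = 0.000226) varied little between the 4 matched pairs (3.70 to 4.13). Slc7a1, the cationic amino acid carrier gene, went from 2.45 and 2.55 FPKM with vehicle and 18.0 and 9.39 with LPS to 63.1 and 56.2 with nicotine and 71.0 and 50.8 with both (3.12 ± 0.42, limma adjusted p = 0.00181).

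Slc7a5 and Slc3a2 encode the light and heavy chains of the leucine carrier LAT1, and the Slc3a2 chain also serves Slc7a11. Slc7a5 was at 2.84 and 1.68 FPKM with vehicle, 26.5 and 12.4 with LPS, 54.8 and 45.3 with nicotine and 71.1 and 55.2 with both (2.86 ± 0.46, limma adjusted p = 0.00342). Slc3a2 was at 67.9 and 115, 511 and 624, 973 and 828, and 1280 and 1118 FPKM in the same order (2.21 ± 0.47, limma adjusted p = 0.00952). In both genes each treatment alone gave a higher level than vehicle, and the nicotine libraries were the highest. Slc1a4 (1.34 ± 0.32) and Slc6a9 (1.11 ± 0.35), carriers of small neutral amino acids and of glycine, also passed.

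For Slc6a9 the libraries were 1.16 and 6.57 FPKM with vehicle, 3.16 and 2.22 with LPS, 6.22 and 15.7 with nicotine and 3.68 and 7.44 with both (limma adjusted p = 0.0377). They overlapped, the call ended without any 1 library other than wild type LPS (0.0531 to 0.111), and 38.8% of its exon bases are shared with the opposite-strand gene Ccdc24.

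Slc7a11, Slc1a5 and Slc43a2 did not pass the average nicotine test. Slc7a11 (chromosome 3, 49892526 to 50443614, minus strand), the cystine-glutamate exchanger gene, was at 9.23 FPKM in wild type and 59.7 in knockout cells with vehicle, and at 573 and 489 with nicotine, 689 and 664 with LPS and 875 and 757 with both. Only the vehicle libraries were low, and the additive model gave 2.34 ± 0.92 (limma adjusted p = 0.0755). It passed without the wild type LPS library or the knockout library with both agents (adjusted p = 0.0447 and 0.0451). Slc1a5, the glutamine carrier gene, was at 17.2 and 19.1 FPKM with vehicle, 12.5 and 12.3 with LPS, 17.6 and 23.0 with nicotine and 31.3 and 31.0 with both (0.70 ± 0.25, limma adjusted p = 0.057). The libraries with both agents were the highest and those with LPS alone the lowest. It passed without the wild type nicotine library (adjusted p = 0.0327).

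Slc43a2, a carrier of large neutral amino acids (chromosome 11, 75531694 to 75577575, plus strand), ran the other way, at 74.3 and 75.2 FPKM with vehicle, 37.6 and 24.8 with nicotine, 2.62 and 2.66 with LPS and 8.15 and 6.79 with both. Nicotine libraries were thus lower than vehicle but higher than LPS alone, and the average change was -0.02 ± 0.50 (limma adjusted p = 0.971).

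Among the 12 synthetase genes, which encode enzymes that load tRNAs with their amino acids, 9 rose with nicotine. Nars, for asparagine, went from 55.0 and 47.4 FPKM with vehicle and 80.0 and 53.4 with LPS to 280 and 264 with nicotine and 348 and 296 with both (2.33 ± 0.14, limma adjusted p = 0.00041). Aars, for alanine, went from 15.1 and 19.98 and 42.7 and 29.8 to 123 and 128 and 150 and 115 FPKM in the same order (2.32 ± 0.25, limma adjusted p = 0.000916), and 23.1% of its exon bases lie in the same-strand gene Exosc6. Yars, for tyrosine, went from 6.12 and 6.59 and 17.3 and 6.75 to 35.4 and 37.8 and 45.9 and 29.1 FPKM (2.01 ± 0.28, limma adjusted p = 0.00194). Levels of these 3 genes did not overlap between nicotine and no nicotine. Cars (1.52), Gars (1.35), Eprs (1.34), Tars (1.13), Sars (1.13) and Iars (0.97) rose less, and of the 9 only Iars overlapped. The Iars call ended without the wild type library with both agents (adjusted p = 0.051).

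Lars, Mars and Wars did not pass. Lars, for leucine, was at 9.92 and 8.51 FPKM with vehicle, 23.4 and 13.4 with LPS, 19.3 and 15.5 with nicotine and 21.6 and 12.7 with both (0.38 ± 0.23, limma adjusted p = 0.219). Mars, for methionine, was at 8.39 and 11.3, 13.4 and 7.01, 11.7 and 9.88, and 9.88 and 7.46 FPKM in the same order (-0.02 ± 0.21, limma adjusted p = 0.956). Mars and Ddit3 lie tail to tail on chromosome 10 and share 68 exon bases, 7.6% of those of Ddit3, and reads there cannot be assigned. Wars (chromosome 12, 108860030 to 108894174, minus strand), for tryptophan and known as an interferon-inducible gene, was at 14.7 and 20.7 FPKM with vehicle, 59.3 and 115 with LPS, 13.7 and 18.4 with nicotine and 13.4 and 20.1 with both. The LPS-only libraries alone were high, and the average nicotine change was -1.19 ± 0.43 (limma adjusted p = 0.0589). Without the wild type nicotine or the knockout vehicle library it passed (adjusted p = 0.0401 and 0.0451).

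The remaining synthetase genes were set beside these 12. Of 8 other cytosolic synthetase genes 1 rose with nicotine, Rars (1.46 ± 0.40, limma adjusted p = 0.0244), and 2 fell, Dars (-1.21 ± 0.16, limma adjusted p = 0.00174) and Kars (-0.74 ± 0.24, limma adjusted p = 0.0401), with a median of -0.40. Of 14 tested mitochondrial synthetase genes 0 rose and 4 fell, with a median of -0.27, a lowest value of -1.55 for Rars2 and a highest of 0.43 for Lars2. The 12 listed genes had a median of 1.24. Over all genes tested, 24.1% rose and 22.2% fell. The 12 were chosen with results of these data known, so the counts only describe the 3 classes.

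**Figure D2:**
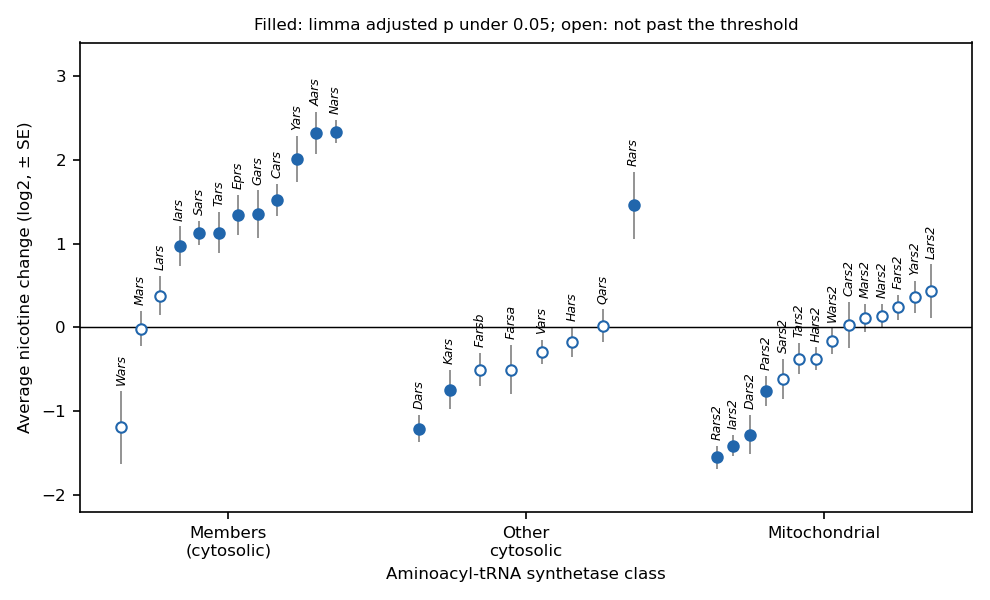
Average nicotine change (log2, points; bars are the standard error from the additive limma model over 8 libraries) of the 12 listed synthetase genes, 8 other cytosolic and 14 mitochondrial synthetase genes. Of the 12 listed genes 9 are filled and above 0, against 1 of 8 and 0 of 14.

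Counts for other genes tied to the same pathway stand beside rises for 24.1% and falls for 22.2% of all genes tested. Outside the ATF4-linked genes, the counts of risers lay near 24.1%. The lists of these other genes were also chosen with earlier results of these data known. Their counts, that of the ATF4-linked genes included, are thus no independent support. Of 12 tested ATF4-linked genes outside the 45, 9 rose and 1 fell, from Gdf15, a stress-induced cytokine gene (5.80 ± 0.35, limma adjusted p = 0.00041), to Cebpd (-0.93 ± 0.22, limma adjusted p = 0.0152). Of 12 genes for eIF2 kinases, eIF2, its exchange factor eIF2B and their partners, 3 rose and 4 fell, with Eif2s2, an eIF2 subunit gene, highest (1.89) and Eif2b3 lowest (-1.63). Among 11 tested further amino acid and folate enzyme genes 3 rose and 4 fell, with Bcat2, a branched-chain amino acid transaminase gene, lowest (-1.16). Among 16 tested further amino acid transporter genes 4 rose and 3 fell, between Slc38a1 (2.23) and the arginine carrier gene Slc7a2 (-2.38). Of the tRNA exporter gene Xpot and 3 genes of the synthetase complex only Xpot rose (1.22 ± 0.28, limma adjusted p = 0.0134).

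LPS changed fewer of these genes on average, 6 upwards and 2 downwards of 43, against 15.8% and 11.3% of all genes tested (27% together). Without either vehicle library or the knockout LPS library 2 genes were called, Ppp1r15a and Slc43a2, and without the wild type LPS library 5 were, of which 3 were among the 8. Calls among all 10447 genes became fewer too, from 1648 upwards and 1176 downwards. They were 663 and 384 without wild type vehicle, 529 and 274 without knockout vehicle, 572 and 372 without knockout LPS. Without wild type LPS they were 794 and 517. Ppp1r15a rose 1.25 ± 0.15 (limma adjusted p = 0.00344), from 10.3 and 11.8 FPKM with vehicle to 33.7 and 25.0 with LPS, and from 183 and 161 with nicotine to 428 and 356 with both. All 4 matched pairs were higher with LPS. Cebpb, whose product drives many LPS-induced genes, was at 71.0 and 79.4 FPKM with vehicle, 402 and 321 with LPS, 152 and 124 with nicotine and 214 and 167 with both (1.35 ± 0.37, limma adjusted p = 0.0375). Chac1 (0.84), Atf4 (0.79), Ddit4 (0.77) and Cars (0.62) were the other risers. Slc43a2 fell by 3.14 on the log2 scale (SE 0.50, limma adjusted p = 0.00859), and Eif2ak4 fell by 0.71. The split depended on scaling: with quantile scaling it was 2 upwards and 6 downwards, with median centring 5 and 5, and with every library set to the same FPKM sum 2 and 9, which shifted the all-gene median from 0.02 to -0.54. The share of all calls that were upwards was 58.4%, and 44.5%, 53.0% and 16.4% with these scalings. Of all 10447 genes, 1284 were called upwards and 1604 downwards with quantile scaling. The counts were 1542 and 1369 with median centring, and 863 and 4402 with equal sums. Atf4 turned to -0.01 with quantile scaling.

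With nicotine, LPS moved fewer genes at least 2-fold, among all genes as among these. Without nicotine, LPS raised 23 of 36 measured genes by at least 2-fold in wild type cells, against 23.4% of all genes, and 11 of 36 in knockout cells, against 21.7%. With nicotine the counts were 3 of 41 in wild type and 1 of 42 in knockout cells, against 7.13% and 9.27%. Genes at least 2-fold lower with LPS numbered 4 and 5 without nicotine, against 15.8% and 11.8%, and 1 and 3 with it, against 3.98% and 3.97%. These are single pairs of libraries with at least 5 FPKM in either, with no test. A gene under 5 FPKM in 1 library of a pair could differ only towards the other. By role, LPS alone raised 9 of 12 synthetase genes at least 2-fold in wild type and 1 of 12 in knockout cells, the latter being Wars. It raised 6 of 6 measured enzyme genes in wild type and 2 of 5 in knockout cells. For regulators the count was 4 of 11 in both genotypes, and for transporters 4 of 7 in wild type and 4 of 8 in knockout cells. Of the enzyme genes, Asns (2.47 FPKM with vehicle), Phgdh (2.78) and Aldh18a1 (3.25) were measured in wild type cells only through LPS. Aldh18a1 (2.92 and 4.32 FPKM) was not measured in knockout cells, where Phgdh rose by 0.97 (log2), just under 2-fold. The enzyme counts of the 2 genotypes thus cover different genes.

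**Figure D3:**
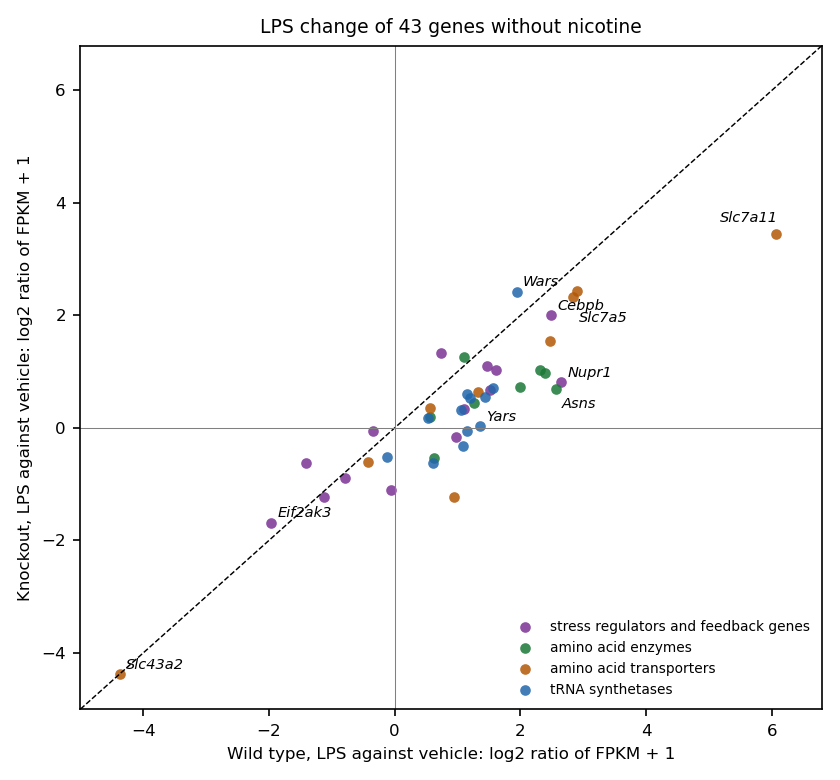
LPS change without nicotine of the 43 tested genes (log2 ratio of FPKM + 1, 1 library against 1) in wild type (horizontal) and knockout cells (vertical), coloured by role; the dashed line marks equal change. Most points lie to the right of or under the line, while Slc43a2 lies on it at -4.38 in both genotypes and Wars lies above it.

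The nicotine change itself depended on LPS for 23 of 43 genes, 18 with a smaller or more negative change under LPS and 5 with a larger one. The 18 include Slc1a4, which could be tested only because of its nicotine libraries, so its call does not stand as support. Over all genes this interaction was called lower for 18% and higher for 12.8% (30.8% together), in a limma model with all 3 pairwise interactions and 1 residual degree of freedom, and the median of all genes was -0.11 against -0.66 for the 43. With this interaction as the only one in the model, 18 were called, against 1332 higher and 1811 lower of all 10447 genes. With each library set to the same FPKM sum, which moved the median of all genes to 0.48, the split was 6 higher and 9 lower, and the share of all calls that were higher went from 41.6% to 84.1% (52.9% with quantile scaling, 18 genes). Of all 10447 genes, 3409 were called higher and 647 lower with equal sums, and 1388 and 1235 with quantile scaling. With equal sums, calls in either direction were thus no more frequent among the 43 than among all genes.

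Slc7a11 had the largest difference. Nicotine raised it by 5.81 in wild type and 3.01 in knockout cells without LPS, and by 0.34 and 0.19 with LPS (log2 ratios), a difference of -4.14 ± 0.66 (limma adjusted p = 0.0222). The heavy and light chain genes shared this pattern. Slc3a2 rose by 3.82 and 2.84 without and by 1.32 and 0.84 with LPS (difference -2.25 ± 0.22, limma adjusted p = 0.0154), and Slc7a5 by 3.86 and 4.11 without and 1.39 and 2.07 with LPS (-2.26 ± 0.21, limma adjusted p = 0.0144). In these 3 genes LPS alone had already raised the level, and the level with both agents was the highest in either genotype.

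Wars and Cebpb were high with LPS alone and lower when nicotine came first. Wars changed by -0.10 and -0.16 with nicotine in the absence of LPS and by -2.06 and -2.46 in its presence (difference -2.13 ± 0.20, limma adjusted p = 0.0144), which put the level with both agents next to vehicle. Cebpb changed by 1.08 and 0.63 without LPS and by -0.91 and -0.94 with it (-1.78 ± 0.21, limma adjusted p = 0.0167), so its sign turned in both genotypes. Nupr1 did likewise, at 79.1 and 147 FPKM with vehicle, 500 and 259 with LPS, 172 and 169 with nicotine and 236 and 153 with both (-1.57 ± 0.35, limma adjusted p = 0.0376).

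The 5 genes with a larger nicotine change under LPS (against 12.8% of all genes) had all been lower with LPS alone than with vehicle. The LPS-only and vehicle libraries enter the interaction itself, so this is not a separate result. Slc43a2 changed by -0.96 and -1.56 without LPS and by 1.34 and 1.09 with it (difference 2.48 ± 0.20, limma adjusted p = 0.0143). Eif2ak3 was at 13.8 and 11.03 FPKM with vehicle, 2.79 and 2.74 with LPS, 16.5 and 15.9 with nicotine and 17.2 and 13.4 with both (1.74 ± 0.23, limma adjusted p = 0.0182). Only the LPS-only libraries were low. Cebpg was at 39.4 and 21.6 FPKM with vehicle, 14.3 and 13.7 with LPS, 68.9 and 43.7 with nicotine and 71.0 and 45.8 with both (1.07 ± 0.26, limma adjusted p = 0.0427). Slc1a5 (1.12 ± 0.19, limma adjusted p = 0.0233) and Impact (0.90 ± 0.20, limma adjusted p = 0.0378) completed this group.

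**Figure D4:**
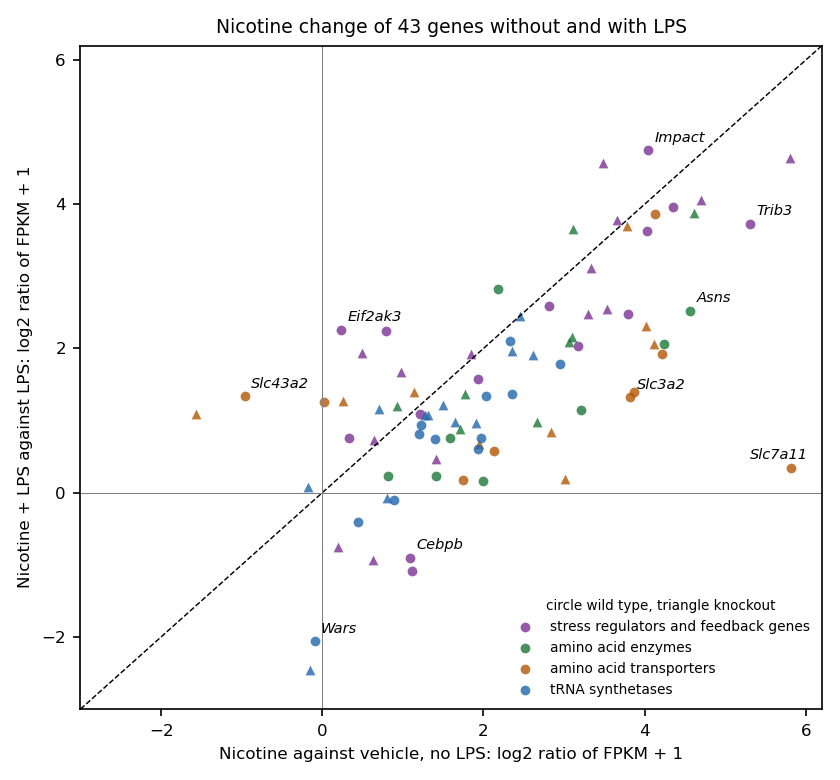
Nicotine change of the 43 tested genes without LPS (horizontal) and with LPS (vertical), as log2 ratios of FPKM + 1 between 2 libraries, circles for wild type and triangles for knockout cells; the dashed line marks equal change. Slc7a11 lies far under the line (5.81 and 0.34 in wild type), Wars and Cebpb are under 0 with LPS, and Slc43a2 and Eif2ak3 lie above the line.

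By role, the nicotine change was set side by side without and with LPS, with no test between roles. Without LPS, nicotine raised at least 2-fold 32 of 40 measured genes in wild type and 30 of 42 in knockout cells, against 19.6% and 18% of all genes. With LPS the counts were 25 of 39 and 29 of 41, against 17.1% and 14%. At least 2-fold lower with nicotine were 0 and 1 without LPS, against 12.7% and 13%, and 2 and 1 with it, against 19.5% and 18.2%. The median change of the regulators was 2.37 and 2.57 without and 2.26 and 2.47 with LPS (wild type, knockout). That of the transporters went from 3.84 and 2.93 to 1.34 and 1.33, that of the enzymes from 2.60 and 2.86 to 1.15 and 1.73, and that of the synthetases from 1.67 and 1.41 to 0.79 and 1.08. The genes measured in each pair differed slightly. A gene under 5 FPKM without nicotine was measured only through its nicotine library and could differ only upwards. In wild type cells without LPS these included Trib3 (1.00 FPKM with vehicle), Chac1 (0.227), Asns (2.47) and Slc7a5 (2.84). Their part in these counts and medians does not stand as support. The same filter was applied to all genes. The median interaction over all tested genes of a role was -0.52 for regulators, -1.36 for enzymes, -1.41 for transporters and -0.59 for synthetases.

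**Figure D5:**
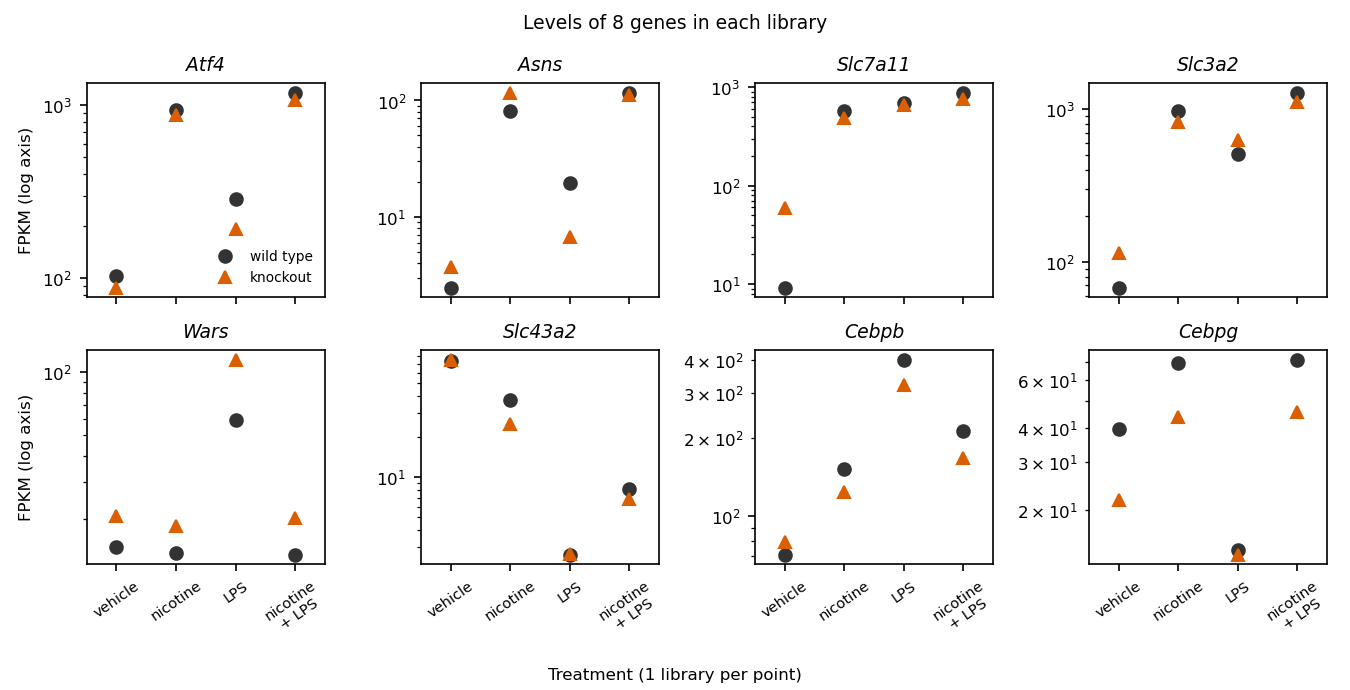
FPKM (log axis) of 8 genes by treatment, circles for wild type and triangles for knockout cells, 1 library per point. Atf4 and Asns are high in the 4 libraries with nicotine, Slc7a11 is low only with vehicle, Wars is high only with LPS alone, and Slc43a2 is highest with vehicle.

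Between genotypes no average difference passed the test in the 43 genes (0 calls by limma, against 1.1% of all genes, 0.689% higher and 0.412% lower in knockout cells). With matched pairs as a block 2 passed, Impact (-0.62 ± 0.12, limma adjusted p = 0.0312) and Wars (0.59 ± 0.12, limma adjusted p = 0.0356). In that model 497 of all 10447 genes were called higher and 301 lower, so the 2 calls do not set these genes apart. At an unadjusted p under 0.05 there were 5, against 12.4% of all genes. The nicotine change likewise did not differ between genotypes at the threshold for any of them (0 of 43 and 0% of all genes, lowest limma adjusted p = 0.74). At an unadjusted p under 0.05 there were 4, against 6.07% of all genes. With 1 residual degree of freedom, 0 calls do not show that the genotypes act alike. Those 4 were Psat1 (nicotine change 1.00 higher in knockout cells, limma unadjusted p = 0.00794), Cth (0.88, 0.0108), Trib3 (0.71, 0.0237) and Slc3a2 (-0.73, 0.0268). Since Cth could be tested only because of its nicotine libraries, its difference does not stand as support. Nicotine raised Atf4 by 3.17 in wild type and 3.301 in knockout cells without LPS, Chac1 by 4.35 and 4.70, Asns by 4.56 and 4.61 and Slc38a2 by 4.13 and 3.79. With LPS the same changes were 2.04 and 2.47, 3.96 and 4.06, 2.52 and 3.88, and 3.86 and 3.70, so Asns was further apart there.

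The widest gaps between genotypes lay elsewhere. With vehicle, Slc7a11 was 2.57 and Slc6a9 1.81 higher in knockout cells on the log2 scale, the only 2 of 32 measured genes at least 2-fold higher, against 4.32% of all genes, and 0 were lower, against 2.68%. Slc6a9 was measured there only through the knockout library (6.57 against 1.16 FPKM). With nicotine alone 2 of 42 were higher and 0 lower, against 2.71% and 2.44%. With LPS alone 7 of 34 measured genes were at least 2-fold lower in knockout cells, against 2.13% of all genes, and 0 were higher, against 4.98%. Asns was 1.41, Phgdh 1.36, Iars 1.25, Yars 1.24, Atf5 1.19, Slc7a5 1.03 and Shmt2 1.009 lower there on the log2 scale. With both agents 0 of 41 differed by that much in either direction, against 4.67% higher and 2.43% lower. The interaction of LPS with genotype, tested after these values were seen, was called for 0 of 43 genes and 0% of all genes by limma, with 12 of 43 against 9.14% of all genes at an unadjusted p under 0.05 (lowest adjusted p = 0.537).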

How the data were processed

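The authors deposited 1 table of FPKM values, with 1 column per library and 24341 lines. Per the submitters' processing notes, CASAVA 1.8, HISAT2, Cufflinks, Cuffdiff and build mm10 were used, in no stated role or order. How libraries were scaled to each other, and with which annotation, is not given in the sources used here. Columns were matched to samples by title, and for 2 repeated symbols the line with the higher mean was kept. FPKM are not counts and the depth is unknown: of 389 to 617 genes under 0.1 FPKM in a pair of libraries, 33.2% to 41.4% shared 1 ratio within 1%, so none was inferred.

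Testing was limited to the 10447 genes averaging 1 FPKM or more, on log2(FPKM + 1), with limma 3.58.1 (R 4.3.3), a trend on expression and Benjamini-Hochberg adjustment at 0.05. The additive model leaves 4 residual degrees of freedom, so its error is taken from non-additive differences between libraries. Pairs were compared at 2-fold without a test. The scripts were tested on simulated data. With 200 of 10447 genes changed, 85% of 2-fold changes were recovered for nicotine, 93% for LPS and 90% for genotype. False calls made up 5.15%, 8.53% and 2.6% of calls. For nicotine by LPS and nicotine by genotype 0% were recovered at 2-fold or 4-fold. With 3200 genes changed, 69.4% and 70.2% of 2-fold interactions were recovered. Gene positions and exon overlaps came from GENCODE M21 (GRCm38) and promoters from RefSeq. The genes described in full were 7 chosen by name and, per role, those with the 3 largest and 3 smallest nicotine changes, plus up to 6 with an interaction; others are described more briefly. The members and lists were chosen with earlier results of these data known. Alternatives covered pseudocounts, filters, scalings, models and left-out libraries. Figures were drawn with Matplotlib 3.10.9 in Python 3.11.15. The value of 1 gene outside the 45 that the naming rule would give is not reported here.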

Additional observations from a re-analysis of the deposited data

Results flagged for a closer look

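In 23 of the 43 tested genes the nicotine change differed between cells with and without LPS (limma interaction, adjusted p under 0.05, against 30.8% of all genes). Values are the log2 nicotine change with LPS minus that without, averaged over both genotypes. Among regulators they were -0.98 for Atf4, -1.37 for Trib3, -1.57 for Nupr1 and -1.78 for Cebpb, and 0.90 for Impact, 1.07 for Cebpg and 1.74 for Eif2ak3. Among enzymes they were -1.33 for Shmt2, -1.44 for Psat1, -1.50 for Phgdh and -1.57 for Mthfd2. Among transporters they were -4.14 for Slc7a11, -2.26 for Slc7a5, -2.25 for Slc3a2, -1.996 for Slc7a1 and -1.41 for Slc1a4, and 1.12 for Slc1a5 and 2.48 for Slc43a2. Slc1a4 could be tested only because of its nicotine libraries, so its value does not stand as support. Among synthetases they were -0.93 for Eprs, -0.93 for Lars, -0.94 for Aars, -1.13 for Gars and -2.13 for Wars.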

How the results depend on the processing

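The nicotine count of 35 genes was 29 to 36 under the alternatives (30 to 35 with 1 library left out, 34 with matched pairs as a block). The LPS count of 8 was 4 with no filter on low values, 1 with LPS as the only term, 3 with matched pairs as a block, and 2 to 9 with 1 library left out. With no filter, 1192 of 16578 genes were called upwards and 740 downwards. Of all 10447 genes the calls were 354 and 166 with LPS as the only term, and 883 and 559 with the block. Genotype gave 2 genes with matched pairs as a block (497 higher and 301 lower of all 10447 genes) and 0 under the others. The nicotine by LPS count of 23 was 15 with each library set to the same FPKM sum, a scaling added after the data were seen. Of all 10447 genes the interaction model then called 3409 higher and 647 lower. No library could be left out of that model, which has 1 residual degree of freedom. Directions turned for nicotine changes near 0 and for Atf4 with LPS under quantile scaling (-0.00816). With 1 library left out, nicotine changes ranged from -0.59 to 0.26 for Nupr1 (above 0 in 2 cases, 0.26 and 0.17), from -0.34 to 0.23 for Cebpb (in 4, 0.22, 0.15, 0.16 and 0.23), from -0.39 to 0.38 for Slc43a2 (in 4, 0.23, 0.19, 0.34 and 0.38) and from -0.22 to 0.17 for Mars (in 3, 0.17, 0.11 and 0.046). With equal FPKM sums they were 0.000826 for Cebpb, 0.00393 for Slc43a2 and 0.00851 for Mars, and with a pseudocount of 0.1 Slc43a2 was at 0.086. The cause was not tested. With equal FPKM sums Slc7a11 (adjusted p = 0.0468) and Wars (0.0219) passed the nicotine test, and Wars did with quantile scaling (0.0249). The motif count of 12 genes was 9 with TGATGCAA only. The block paired libraries alike in the other 2 factors. Pairing by replicate could not be done, since each group had 1 library and the labels number no replicates.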
